A study of Mus musculus with 11 samples.

Results

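The methylation of 5 CpGs upstream of Tfrc was compared between hematopoietic stem cells (HSCs) of the spleen and of the bone marrow. By the sample names, the mice had not been made anemic. The samples were chosen by name, with earlier results of these data known. They were the 2 samples named WT_SPL_HSC and the 3 named WT_BM_HSC, 5 of the 11 in the series, and in them every CpG with reads was used. All 5 came from C57BL/6 mice with a WT genotype, adult animals of either sex according to the methods, and HSCs were sorted as lineage- Sca-1+ c-kit+ CD150+ CD48-/low cells. The other 6 samples, by their names, came from mice given phenylhydrazine (PHZ), which lyses red blood cells, and were not compared here. If the names are right, the comparison gives the state of the locus in each organ without anemia.

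The labels of the splenic samples disagree with each other. Their names and the design text of the series call them WT, but their treatment field reads PHZ, the agent that the protocol field describes as 60 mg/kg injected on 2 days with sorting on day 3 after the last injection. The field reads PBS, the vehicle, for the 3 marrow samples. It follows the organ in the whole series, contradicting the name in 5 of 11 samples, of which 2 are the splenic samples used here. The names define the groups here. They match the numbers of untreated and PHZ-treated splenic samples that the study lists for this assay, and a field reading PHZ for every splenic sample does not. The labels do not say whether spleen and marrow samples with the same number came from the same mouse, nor that marrow samples came from separate mice. If they did not, p-values measure only the spread between samples.

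Tfrc encodes the transferrin receptor CD71, which binds iron-loaded transferrin at the cell surface and carries it into the cell. Erythroid precursors, which need iron for heme, express it at high levels. Methylated cytosines in CpG dinucleotides near a gene are commonly associated with low transcription, and TET enzymes oxidize methylated cytosine and so start its removal. Bisulfite turns unmethylated cytosine into a base read as thymine and leaves methylated cytosine unchanged. It does not separate methylated from hydroxymethylated cytosine, so a methylation level here counts both forms. As the cells were measured in bulk, a level does not tell which cells, or which copies of the locus in them, were unmethylated.

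The PCR product covers 249 bp at chr16:32608045-32608293 (GRCm38, forward strand). No GENCODE or RefSeq gene overlaps it, and it ends 627 bp before the GENCODE start of Tfrc at 32608920. It is shown whole because it holds every CpG that was read, with each CG in capitals:
Tfrc amplicon: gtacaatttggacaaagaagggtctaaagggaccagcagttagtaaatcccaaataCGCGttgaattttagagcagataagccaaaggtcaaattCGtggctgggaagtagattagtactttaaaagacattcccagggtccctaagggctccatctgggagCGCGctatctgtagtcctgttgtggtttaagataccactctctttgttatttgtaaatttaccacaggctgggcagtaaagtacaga
The CpGs, numbered in order of position, lie at 32608101 (CpG 1), 32608103 (CpG 2), 32608140 (CpG 3), 32608207 (CpG 4) and 32608209 (CpG 5). CpG 1 and CpG 2 touch each other, as do CpG 4 and CpG 5, whereas CpG 3 stands alone. The product is poor in CpGs beside the start of the gene. It has 5 CpGs and an observed-to-expected CpG ratio of 0.444, while the 300 bp window at the RefSeq start of Tfrc has 30 CpGs and a ratio of 0.940. Among mouse promoter windows of the product's length, however, 49.7% have at most as many CpGs and 55.5% have a ratio no higher. None of the product's bases is marked as repeat. The letters AGATAA, a form of the core bound by GATA factors of the erythroid lineage, occur once in it, 21 bp before CpG 3, counting both strands. They also occur in 9.97% of 32841 mouse promoter windows of the same length, and a match does not show binding. Other forms of this core were not searched for. The E-box letters CANNTG occur once as well, as they do at least once in 66.2% of these windows. GGGCGG and CACCC, found in 32.6% and 51.9% of the windows, do not occur.

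Depth was high in 4 of the 5 samples. Forward-strand reads summed over the CpGs were 12240 and 15370 in splenic replicates 1 and 2, and 13389 and 7369 in marrow replicates 1 and 2, with 1173 to 3556 reads at a CpG. Marrow replicate 3 had 86 reads in all and 15 to 20 at a CpG, so that 1 read there is worth 5 to 6.67 percentage points. At this depth it differed from neither of the other marrow samples at any CpG (Fisher's exact test of reads, smallest adjusted p = 0.36 against replicate 1 and 0.24 against replicate 2), and a library deposited again would not be detectable. Each comparison is therefore given with and without it.

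**Figure D1:**
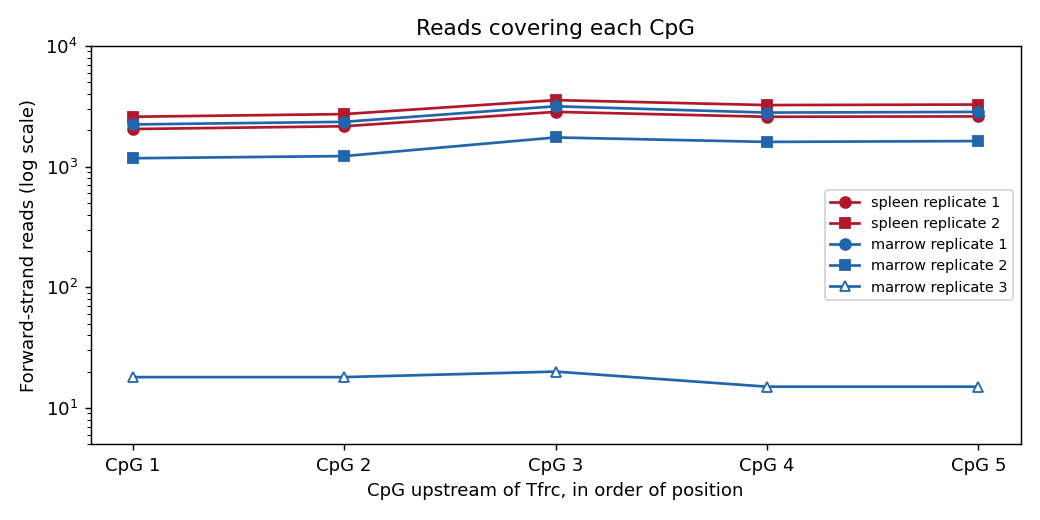
Forward-strand reads (log scale) covering each of the 5 CpGs in each untreated sample. The 4 deep libraries lie between 1173 and 3556 reads at every CpG, and marrow replicate 3, drawn open, lies at 15 to 20.

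Splenic HSCs had the higher mean methylation at all 5 CpGs, with the widest difference at CpG 2 (25.5 percentage points) and the narrowest at CpG 5 (5.36 points). Without marrow replicate 3 the widest was again at CpG 2 (29.1 points) and the narrowest was at CpG 1 (4.37 points). At CpG 1 to CpG 4, that is at 4 of 5 sites, each marrow sample lay below both splenic samples, and at CpG 5 the groups overlapped. These are all the CpGs assayed, so the share without overlap, 80.0%, is also the background, and it was again 80.0% without marrow replicate 3. Averaged over the 5 CpGs, methylation was 96.2% and 91.9% in splenic replicates 1 and 2 against 86.7%, 75.8% and 84.6% in marrow replicates 1, 2 and 3. The splenic mean of 94.1% ± 3.07 (SD, n = 2) exceeded the marrow mean of 82.3% ± 5.78 (SD, n = 3) by 11.8 points with an SE of 3.98 (two-sided p = 0.1 in the exact permutation test). No lower p can come from 2 samples against 3, so that no CpG could reach 0.05. Without marrow replicate 3 the difference was 12.9 points with an SE of 5.87 (two-sided p = 0.333 in the exact permutation test, the lower limit for 2 against 2).

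**Figure D2:**
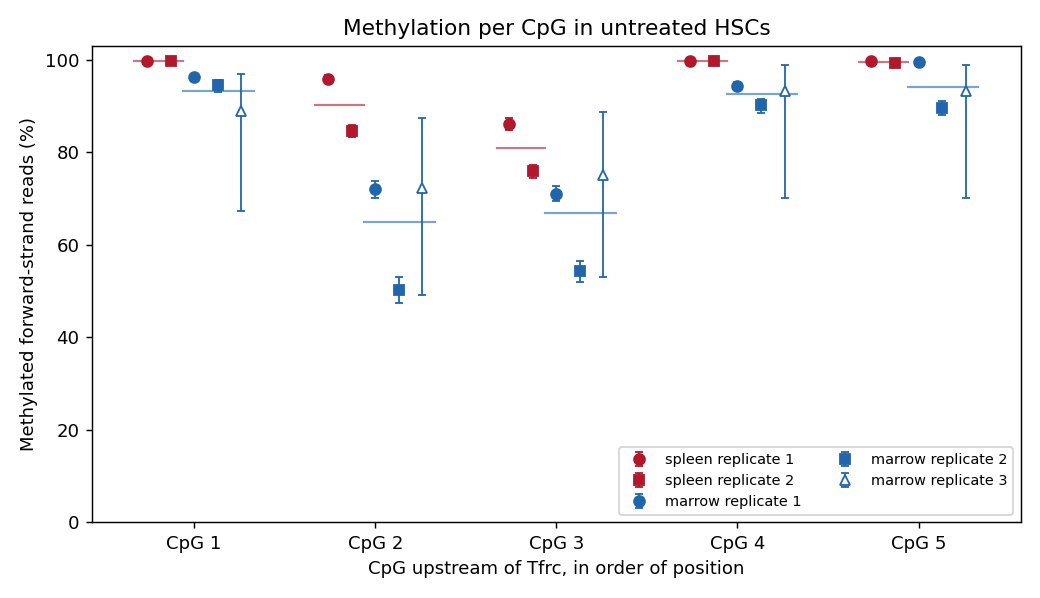
Percentage of forward-strand reads methylated at each CpG in each untreated sample, with 95% Wilson intervals for counting error and a horizontal line at each group's mean. Splenic samples sit near 100% except at CpG 2 and CpG 3, and marrow samples lie below both of them at every CpG but CpG 5.

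At CpG 2, methylation was 95.9% (95% Wilson interval 95.01 to 96.7) in splenic replicate 1 and 84.7% (83.3 to 86.0) in replicate 2. Marrow replicate 1 had 72.1% (70.2 to 73.9), replicate 2 had 50.2% (47.4 to 53.0) and replicate 3 had 72.2% (49.1 to 87.5). The lowest splenic sample was 12.5 points above the highest marrow sample. That marrow sample was replicate 3, whose interval reaches past that of splenic replicate 2, so their order is not resolved at its depth. Without replicate 3 this gap was 12.6 points. Means were 90.3% ± 7.95 (SD, n = 2) and 64.8% ± 12.6 (SD, n = 3), a difference of 25.5 points with an SE of 9.21 (exact permutation test, p = 0.1, adjusted p = 0.25 over the 5 CpGs). Without marrow replicate 3 it was 29.1 points with an SE of 12.3, and without marrow replicate 2 it was 18.2. The row of marrow replicate 2 at this CpG is the only one in the series whose context column carries an extra letter, CpGx, and the sources do not state what it marks.

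At CpG 3, the isolated site at 32608140, methylation was lower than at the sites beside it in both splenic samples. Splenic replicates 1 and 2 had 86.1% (95% Wilson interval 84.8 to 87.3) and 75.9% (74.5 to 77.3). The marrow samples had 71.1% (69.5 to 72.6), 54.2% (51.9 to 56.6) and 75.0% (53.1 to 88.8) in replicates 1, 2 and 3. Splenic replicate 2 was only 0.928 points above marrow replicate 3, in which 15 of 20 reads were methylated. The interval of marrow replicate 3 spans those of both splenic samples, so its order against either is not resolved at this depth. Without that library the lowest splenic sample lay 4.87 points above the highest marrow sample here, and 3.40 points above it at CpG 1, which then had the narrowest such gap among the 4 sites without overlap. The means, 81.0% ± 7.19 (SD, n = 2) and 66.8% ± 11.02 (SD, n = 3), differed by 14.2 points with an SE of 8.14 (exact permutation test, p = 0.2, adjusted p = 0.25). The difference was 18.4 points with an SE of 9.83 without marrow replicate 3, 7.98 without marrow replicate 2 and 9.16 without splenic replicate 1.

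CpG 1 and CpG 4 were almost fully methylated in the spleen and less so in the marrow. At CpG 1, splenic replicates 1 and 2 had 99.8% and 99.7%, and marrow replicates 1, 2 and 3 had 96.3%, 94.5% and 88.9%. The difference of 6.54 points had an SE of 2.24 (exact permutation test, p = 0.2, adjusted p = 0.25). It fell to 4.37 points without marrow replicate 3, in which 2 of 18 reads were unmethylated. At CpG 4, the splenic samples had 99.7% and 99.8% and the marrow samples 94.3%, 90.1% and 93.3%. This difference of 7.15 points had an SE of 1.27 (exact permutation test, p = 0.1, adjusted p = 0.25). It was 7.52 points with an SE of 2.10 without marrow replicate 3, where the SE at CpG 1 was 0.937, and it stayed between 5.92 and 8.02 with each sample left out in turn.

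CpG 5 was the site at which the groups overlapped. Marrow replicate 1, with 99.5%, lay between splenic replicate 1 (99.7%) and splenic replicate 2 (99.4%), while marrow replicates 2 and 3 had 89.7% and 93.3%. The mean difference of 5.36 points had an SE of 2.86 (exact permutation test, p = 0.3, adjusted p = 0.3), and 4.95 points remained without marrow replicate 3. Without marrow replicate 2 it was 3.12 points, and without marrow replicate 1 it was 8.02. CpG 4, which touches this site, did not follow it in marrow replicate 1, where the difference of CpG 4 from CpG 5 was -5.14 points.

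**Figure D3:**
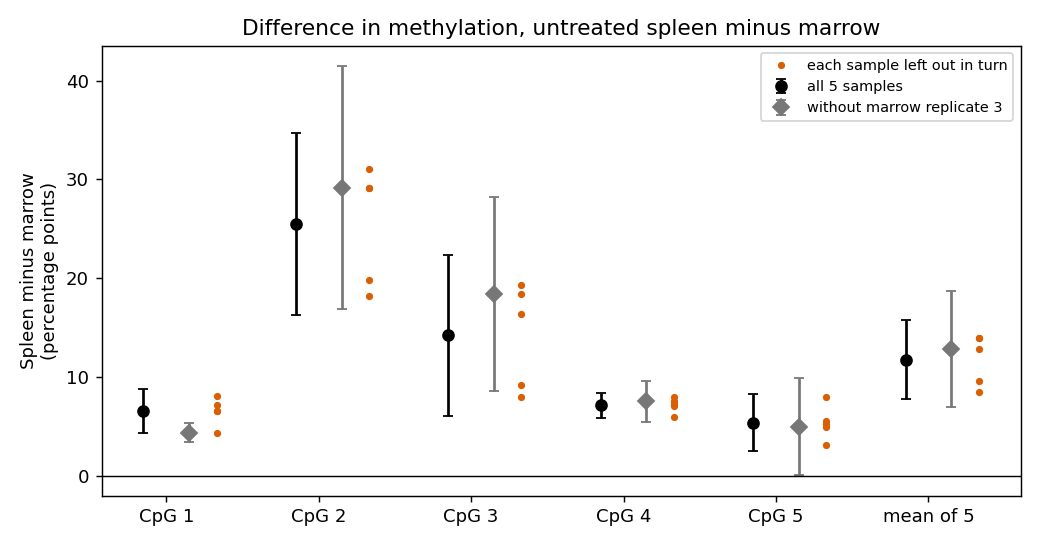
Splenic minus marrow methylation in percentage points at each CpG and for the mean of the 5 CpGs. Black circles use all 5 samples and gray diamonds leave out marrow replicate 3, both with the SE of the difference, and orange dots leave out each sample in turn. Every value lies above 0, from 3.12 points at CpG 5 to 31.1 at CpG 2.

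The unmethylated share, taken as a ratio of marrow to spleen, ordered the sites differently from the difference in points. In the spleen it averaged 0.233% at CpG 1 and 0.247% at CpG 4, against 6.77% and 7.40% in the marrow, ratios of 29.1 and 29.9. At CpG 2 the shares were 9.69% and 35.2%, a ratio of 3.63, and at CpG 3 they were 19.0% and 33.2%, a ratio of 1.75. CpG 5 lay between, with 0.475% and 5.84% and a ratio of 12.3. Without marrow replicate 3 the ratios from CpG 1 to CpG 5 were 19.8, 4.01, 1.97, 31.4 and 11.4. The ratio at CpG 2 depended on the splenic samples, whose unmethylated shares were 4.08% and 15.3%: it was 2.30 without splenic replicate 1 and 8.62 without splenic replicate 2. At CpG 5 it was 19.0 without splenic replicate 2 and 7.58 without marrow replicate 2.

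The high ratios rest on low splenic counts, which were set against the reverse-strand reads. The primers match the converted top strand only, and reverse-strand reads were 99.8% to 100% methylated at each CpG of all 5 samples, so that their unmethylated reads were taken as the background. Reverse-strand cytosines of such a product are PCR copies that bisulfite did not act on, so this background holds PCR and sequencing errors. Wrong conversion of methylated cytosine was not measured. Nor was failed conversion of unmethylated cytosine, which is then read as methylated. Whether conversion differed between splenic and marrow libraries was not tested. In splenic replicate 1, 4 of 2048 forward reads at CpG 1 were unmethylated against 2 of 2120 reverse reads, and in replicate 2 it was 7 of 2589 against 6 of 2640. Neither passed Fisher's exact test of reads (adjusted p = 0.48 and 0.79 over 25 tests), so that unmethylated CpG 1 was not detectable above this background in the spleen. At CpG 4, replicate 1 passed with 8 of 2588 against 1 of 2599 (Fisher's exact test, adjusted p = 0.031) and replicate 2, with 6 of 3234 against 2 of 3170, did not (adjusted p = 0.36). At CpG 5 it was the other way round, with 8 of 2605 reads in replicate 1 (Fisher's exact test, adjusted p = 0.085) and 21 of 3268 in replicate 2 (adjusted p = 0.00046). CpG 2 and CpG 3 passed in both splenic samples, with 88 and 417 unmethylated reads at CpG 2 and 395 and 856 at CpG 3. Marrow replicates 1 and 2 passed at all 5 CpGs, with 82 of 2235 and 65 of 1173 unmethylated reads at CpG 1. Marrow replicate 3 passed at 1, CpG 3, and had no unmethylated reverse read, which at 17 to 25 reads allows a background of up to 12% to 17.6%. These tests and intervals compare reads within a library and cover counting error only, since reads of a PCR product that carry no molecular identifier can be copies of each other.

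Samples of the same organ also differed from each other. The SD between the splenic samples was 0.0531, 0.0874 and 0.237 points at CpG 1, CpG 4 and CpG 5, and their difference did not pass a test of reads at these sites (chi-square test, p = 0.60, 0.34 and 0.068). Splenic levels there were near 100%, which leaves little room for spread. At CpG 2 and CpG 3 the splenic SDs of 7.95 and 7.19 points were 13.9 and 10.5 times the SD that read counting gives. That counting SD takes each read as a separate molecule, and the methods do not give the number of cells behind a library. How much of the spread in either organ came from sampling few cells was not tested. The marrow SD was numerically larger at all 5 CpGs, at 3.87, 12.6, 11.02, 2.19 and 4.95 points from CpG 1 to CpG 5. With the shallow replicate 3 in it, however, it was 0.900 and 0.584 times the counting SD at CpG 1 and CpG 4, no more than read counting gives, and 2.05, 1.95 and 1.32 times at CpG 2, CpG 3 and CpG 5. Without that replicate the marrow SDs were 1.32, 15.4, 11.9, 2.96 and 6.92 points, again above the splenic ones, and 2.41, 12.8, 11.7, 4.85 and 12.8 times the counting SD. At CpG 2 and CpG 3 these multiples are close to those of the spleen. Marrow replicates 1 and 2 differed at each site (Fisher's exact test of reads, largest adjusted p = 0.013), a test of these libraries that takes reads as independent. No test of the difference in spread between organs was made with 2 and 3 samples. Splenic replicate 1 was above replicate 2 at 4 of 5 CpGs, and marrow replicate 1 above replicate 2 at 5 of 5.

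The profile along the amplicon was shared in part. In all 5 samples CpG 2 and CpG 3 were the least methylated sites, with means over this pair of 91.0% and 80.3% in splenic replicates 1 and 2 and 71.6%, 52.2% and 73.6% in marrow replicates 1, 2 and 3. The other 3 sites averaged 99.7% and 99.6% in the spleen and 96.7%, 91.4% and 91.9% in the marrow. The lowest site was CpG 3 in both splenic samples and in marrow replicate 1, and CpG 2 in marrow replicates 2 and 3. CpG 2 exceeded CpG 3 by 9.83 and 8.76 points in the splenic samples and by 1.01 points in marrow replicate 1, whereas the difference was -4.00 and -2.78 points in marrow replicates 2 and 3.

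The touching sites were not alike in level. CpG 1 exceeded CpG 2, its direct neighbor, by 3.88 and 15.0 points in splenic replicates 1 and 2 and by 24.3, 44.2 and 16.7 points in marrow replicates 1, 2 and 3. All 3 marrow samples showed the wider step, although in marrow replicate 3 it rests on 18 reads a site. CpG 4 and CpG 5, in contrast, differed by at most 0.457 points in 4 of the samples, the exception being marrow replicate 1. One of the 4 is marrow replicate 3, with 15 reads a site, where 1 read is worth 6.67 points. The grouping of sites into these pairs was made after their values had been seen, and these values are given without a test.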

How the data were processed

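According to the methods of the study, sorted cells were bisulfite converted, the Tfrc region was amplified by PCR, and Nextera XT libraries were sequenced on an iSeq 100, mapped to mm10 and analyzed with Bismark 0.22.2. The step that wrote the deposited layout, filters and removal of duplicates are not given in the sources used here. The files deposited by the authors give, for each strand of a CpG, a methylated fraction and the count of reads behind it. Fraction times count gave whole numbers in all 198 rows (tolerance 0.02), from which methylated reads were recovered.

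The spacing of the listed CpGs matched 1 place on chromosome 16 of GRCm38, and the bisulfite primers matched its converted top strand and not its bottom strand. Forward-strand rows were used, with at least 10 reads. Promoter windows were the leading 249 bases of RefSeq promoter sequences (GRCm38.p6).

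The sample was the replicate. Means of sample percentages were compared by exact two-sided permutation over all 10 splits, with Benjamini-Hochberg adjustment over the 5 CpGs. The SE combines the SDs of both groups. Reads were compared by Fisher's exact and chi-square tests. Alternatives were summed strands, pooled reads, log odds (pseudocount 0.5), minimums of 100 and 1000 reads, each sample left out, a replicate block, Fisher's exact test after pooling, the study's unpaired two-tailed test and a quasi-binomial model. Every CpG with reads was named. The samples, strand and settings were chosen with earlier results of these data known. Scripts were tested on simulated counts. The work used SciPy 1.17.1 and NumPy 2.4.6 in Python 3.11.15, with matplotlib 3.10.9 for plots.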

Additional observations from a re-analysis of the deposited data

How the results depend on the processing

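The splenic mean was the higher one at each of the 5 CpGs and for their mean under all 88 alternative values. At CpG 1 to CpG 4 both splenic samples lay above every marrow sample. Leaving out, pooling or averaging samples could therefore not reverse the sign at these sites, whereas at CpG 5 it could have. Some alternatives also repeat the same values, so the 88 are not separate checks. An exact test of 2 samples against 3 cannot reach 0.05, so an unchanged call there shows no stability. With each sample left out in turn the difference for CpG 1 was 4.37 to 8.09 points, that for CpG 2 was 18.2 to 31.1, for CpG 3 it was 7.98 to 19.3, for CpG 4 it was 5.92 to 8.02, for CpG 5 it was 3.12 to 8.02, and the mean gave 8.47 to 13.9. Marrow replicate 2 set the lower end at every site but CpG 1, where replicate 3 did. Minimums of 100 and 1000 reads remove only marrow replicate 3. Summed strands brought the differences to 3.22, 12.5, 6.55, 3.34 and 2.46 points from CpG 1 to CpG 5, as reverse rows are near 100%. Fisher's exact test of pooled reads, which takes PCR reads as independent, passed 0.05 at all 5 CpGs, with differences of 4.11, 25.0, 15.3, 6.95 and 3.61 points. The quasi-binomial model and the study's test passed at none after adjustment, and at 2 CpGs (CpG 1 and CpG 4) and 1 (CpG 4) before it. Averaging marrow replicates 2 and 3 as 1 sample, an alternative chosen after seeing the data, gave 5.76, 23.7, 13.2, 6.72 and 4.04 points.

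Samples of the organs share replicate numbers 1 and 2, but the labels do not say what the numbers mark. Deviations of same-numbered samples from the mean of their organ were correlated at 0.877 (10 values, 2 pairs). This says little about pairing, since the deviations of the 2 splenic samples mirror each other and replicate 1 was higher than replicate 2 in both organs at most sites. Blocking on the replicate number gave differences of 4.37, 29.1, 18.4, 7.52 and 4.95 points and 12.9 for the mean (p = 0.5 by an exact sign-flip permutation, the lower limit for 2 pairs).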

Other observations

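The files list another CpG, at 32608314, which lies past the end of the PCR product and had 0 reads in every sample. Within the product, CpG 3 was covered by the most reads in all 5 samples, with 2840 and 3556 forward-strand reads in splenic replicates 1 and 2 and 3162, 1744 and 20 in marrow replicates 1, 2 and 3.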
